A study of Mus musculus with 3 samples.

Results

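Glycosaminoglycans are the long sulfated sugar chains carried by proteoglycans, and the 48 genes described here encode the proteins that supply, build, sulfate and trim them. They were taken by symbol from a list of sulfate supply, linker, chondroitin sulfate and heparan sulfate genes, and 48 of the 48 symbols were among the 23284 genes listed for each library. By role they were 7 genes of sulfate activation and transport, 4 of nucleotide sugar (UDP-sugar) supply and 6 of the linker. There were also 6 of chondroitin chain polymerization, 9 of chondroitin and dermatan sulfate modification, 5 of heparan chain polymerization, 8 of heparan sulfate modification and 3 sulfatases.

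RNA-seq was done on 3 sorted populations of mouse embryonic digit cells on a C57/bl6 background, with 1 library each. Lgr5+ cells, labelled as interzone, were the GFP-positive forelimb digit cells of Lgr5-eGFPCreERT2/+ embryos at E14.5, an embryonic day as labelled. Lgr5− cells, labelled as non-interzone, were GFP-negative forelimb digit cells of the same genotype and day. Sox9+ cells were sorted from digits of Sox9-eGFP/+ embryos at E13.5, and the labels do not name their limb. In the Lgr5 line the reporter and the inducible Cre recombinase are driven from the Lgr5 locus, and the labels mention no treatment that would activate the Cre. The number of embryos pooled in a library is not given in the sources used here, and the sorts were by reporter and not by position in the digit. The Sox9+ library differs from the Lgr5 libraries in day, mouse line and sort at once, and these cannot be told apart.

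In growing cartilage, chondroitin sulfate fills the matrix as side chains of aggrecan and needs a large supply of active sulfate and of UDP-sugars. Heparan sulfate on cell surface and basement membrane proteoglycans binds growth factors such as FGFs, Wnts, BMPs and hedgehogs, and its pattern of sulfate groups sets which of them bind. Both chains start on the same linker of xylose, 2 galactoses and glucuronic acid, and then part into separate lines of enzymes. Loss of several of these genes causes skeletal dysplasia in humans, among them the sulfate transporter SLC26A2 and the nucleotide sugar transporter SLC35D1.

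Values are in FPKM, fragments scaled to transcript length and to the mapped fragments of a library, so levels of different genes are comparable per length. A fold is the ratio of FPKM + 1 between a pair of libraries, which understates the differences of low genes. A gene was measured in a pair where the larger of its values reached 1 FPKM. With 1 library per population there is no replicate, error or p-value, and every difference given is between libraries. In bulk RNA, fewer cells of a type and less RNA per cell cannot be told apart.

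The promoters of 5 of the members at least 2-fold different in some pair are shown first, from RefSeq on build GRCm38.p6. Sulf1, Slc26a2, Xylt1 and Csgalnact1 also differed by that margin, but no RefSeq window was found for them. Papss2 and Chst15 differed by that margin too and had windows, which are not shown. Each window runs 5′ to 3′ on the gene's strand from 250 bases before to 50 bases after the most upstream start listed. Capitals mark every match, on either strand, to any of 5 letter strings, which were GGGCGG (the GC box), TATAAA, the SOX factor cores ACAAAG and ACAATG, and the E-box CACGTG. Sulf2 lies at chr2:166155634-166155933 on the minus strand, Uxs1 at chr1:43827790-43828089 on the minus strand and Ugdh at chr5:65435793-65436092 on the minus strand. Slc35d1 lies at chr4:103215127-103215426 on the minus strand and Chst11 at chr10:82985247-82985546 on the plus strand.
Sulf2 promoter: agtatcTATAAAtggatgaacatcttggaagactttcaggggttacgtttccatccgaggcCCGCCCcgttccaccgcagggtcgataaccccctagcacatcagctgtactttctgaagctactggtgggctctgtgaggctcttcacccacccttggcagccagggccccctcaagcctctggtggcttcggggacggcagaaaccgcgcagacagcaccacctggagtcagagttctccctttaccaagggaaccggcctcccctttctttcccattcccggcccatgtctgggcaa
Uxs1 promoter: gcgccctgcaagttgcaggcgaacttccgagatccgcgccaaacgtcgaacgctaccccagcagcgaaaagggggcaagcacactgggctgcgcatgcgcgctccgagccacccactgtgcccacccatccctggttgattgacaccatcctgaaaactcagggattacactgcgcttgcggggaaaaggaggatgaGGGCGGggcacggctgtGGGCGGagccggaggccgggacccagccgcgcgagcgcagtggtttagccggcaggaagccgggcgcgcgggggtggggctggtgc
Ugdh promoter: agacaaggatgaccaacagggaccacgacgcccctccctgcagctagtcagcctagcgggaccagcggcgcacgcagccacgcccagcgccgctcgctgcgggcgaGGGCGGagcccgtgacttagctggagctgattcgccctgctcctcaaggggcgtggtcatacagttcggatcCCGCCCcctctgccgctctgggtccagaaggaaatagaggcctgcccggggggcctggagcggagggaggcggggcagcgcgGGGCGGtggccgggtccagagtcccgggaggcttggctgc
Slc35d1 promoter: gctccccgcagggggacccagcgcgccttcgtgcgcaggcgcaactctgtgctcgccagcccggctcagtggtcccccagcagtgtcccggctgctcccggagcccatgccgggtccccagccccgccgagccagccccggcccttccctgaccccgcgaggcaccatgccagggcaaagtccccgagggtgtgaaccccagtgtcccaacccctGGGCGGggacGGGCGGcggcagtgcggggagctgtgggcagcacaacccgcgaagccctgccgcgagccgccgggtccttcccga
Chst11 promoter: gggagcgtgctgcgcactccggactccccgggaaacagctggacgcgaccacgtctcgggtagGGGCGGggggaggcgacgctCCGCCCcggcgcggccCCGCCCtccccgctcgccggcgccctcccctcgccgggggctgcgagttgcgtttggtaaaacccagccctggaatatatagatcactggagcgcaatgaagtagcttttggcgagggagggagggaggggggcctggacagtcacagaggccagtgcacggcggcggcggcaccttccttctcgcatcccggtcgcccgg

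All 5 windows held a GC box, and the Sulf2 window also held TATAAA, near its upstream end. RefSeq windows were found for 39 of the 48 members. The GC box was in 28 of the 39, or 71.8%, against 35.9% of 27025 windows of the same length over all genes. Those windows were taken whether or not the gene was expressed here, while nearly all members were. Windows of expressed genes alone were not counted. The members' windows were also richer in G and C, with a median of 66.3% and 23 CpG pairs, against 52.7% and 7 over all genes. TATAAA was in 3 of the 39 windows (7.69%, against 14.2% of all windows), and so was CACGTG (7.69% against 7.24%). The SOX core ACAAAG was in 1 window, that of Chst3 (2.56% against 18.7%), and ACAATG was in 2, those of Slc35b3 and Xylt2 (5.13% against 12.8%). A match describes letters in these windows and is not evidence of binding.

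The genes that defined the sorts were read before the members. Lgr5 stood at 26.8 FPKM in Lgr5+ cells, 1.36 FPKM in Lgr5− cells and 3.48 FPKM in Sox9+ cells, and the interzone growth factor gene Gdf5 at 614.8, 71.7 and 59.9 FPKM in the same order. Sox9 stood at 332 FPKM in Lgr5+ cells, 147.1 FPKM in Lgr5− cells and 254.7 FPKM in Sox9+ cells. The summed FPKM of 18 cartilage marker genes was 5063 in Lgr5+ cells, 2999 in Lgr5− cells and 11290 in Sox9+ cells. Of these 18 markers, 11 were at least 2-fold lower in Lgr5+ cells and 17 in Lgr5− cells than in Sox9+ cells. Markers of hypertrophic and pre-hypertrophic chondrocytes (11 genes) summed to 124.7 FPKM in Lgr5+ cells, 235.1 FPKM in Lgr5− cells and 332.1 FPKM in Sox9+ cells. Of these 11, 9 were at least 2-fold lower in Lgr5+ cells and 6 in Lgr5− cells than in Sox9+ cells. Over all genes 3.96% and 4.94% were that much lower in these comparisons. Markers of other cells also differed. Muscle markers (12 genes) summed to 114.8, 31.9 and 24.8 FPKM in Lgr5+, Lgr5− and Sox9+ cells, and macrophage markers (10 genes) to 103.3, 60.8 and 13.8 FPKM. Red blood cell markers (10 genes) summed to 157 FPKM in Lgr5+ cells, 4011 FPKM in Lgr5− cells and 149.2 FPKM in Sox9+ cells. Epidermal markers (10 genes) summed to 57.8, 25.5 and 63.9 FPKM, and endothelial markers (8 genes) to 9.6, 12.2 and 5.27 FPKM. The part of these cells in the values of the members was not tested.

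Nearly all members were expressed. In Lgr5+ cells 45 of 48 reached 1 FPKM, and in the Lgr5− and Sox9+ libraries 46 of 48. Chst13, a chondroitin 4-O-sulfotransferase gene, was listed at 0 in both Lgr5 libraries and at 0.05 FPKM in Sox9+ cells. Ndst3, a heparan sulfate N-deacetylase/N-sulfotransferase gene, was at 0.18 FPKM in Lgr5+ cells, 0.21 FPKM in Lgr5− cells and 0.01 FPKM in Sox9+ cells. These 2 genes were measured in no pair. The third member under 1 FPKM in Lgr5+ cells was Chst7, at 0.68 FPKM. The 48 members summed to 1489 FPKM in Lgr5+ cells, 1018 FPKM in Lgr5− cells and 1431 FPKM in Sox9+ cells, which was 0.279%, 0.186% and 0.241% of all FPKM. The extracellular sulfatase genes Sulf2 and Sulf1 were the 2 highest members in both Lgr5 libraries. In Sox9+ cells the highest was Ugdh, the gene of the enzyme that makes UDP-glucuronic acid, followed by Sulf2.

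**Figure D1:**
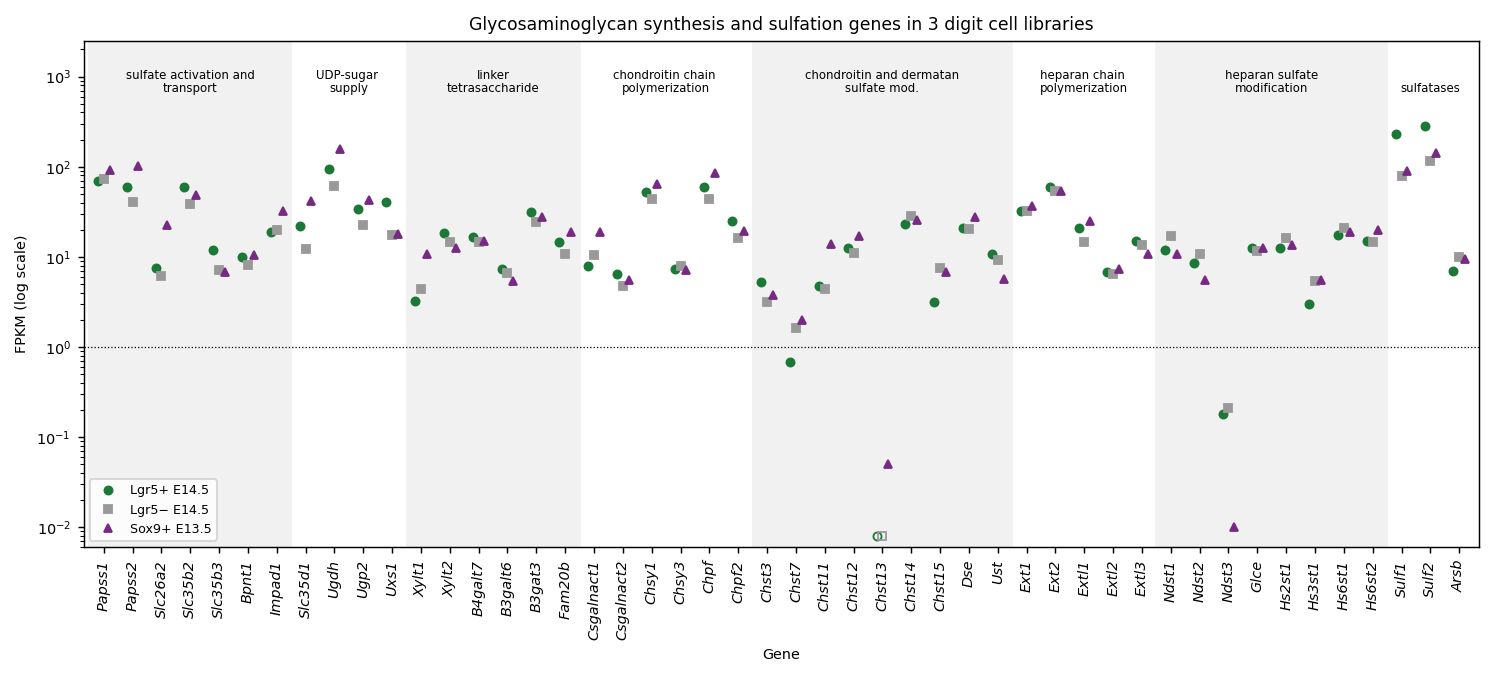
FPKM (log axis) of the 48 members in Lgr5+, Lgr5− and Sox9+ cells, 1 point per library, ordered by role. Open symbols at the bottom stand for Chst13, listed at 0 in both Lgr5 libraries, and the dotted line marks 1 FPKM. Sulf1 and Sulf2 sit above all other members in Lgr5+ cells, and Ugdh leads in Sox9+ cells.

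Among the 46 members with at least 1 FPKM in some library, 22 (47.8%) had their highest value in Sox9+ cells, against 34.3% of 12754 genes of that kind. The highest value was in Lgr5+ cells for 16 members (34.8%, against 39.1% of those genes) and in Lgr5− cells for 8 (17.4%, against 26.7%). The lowest value was in Lgr5− cells for 27 members (58.7%, against 36.3%), in Lgr5+ cells for 11 (23.9%, against 24.5%) and in Sox9+ cells for 9 (19.6%, against 39.7%). These last counts moved with scaling. Lowest in Lgr5+ cells were 18 members (39.1%, against 36.9% of all genes) by upper quartile, and lowest in Sox9+ cells were 15 (32.6%, against 50.9%) after rescaling to TPM. The order Sox9+ above Lgr5+ above Lgr5− was shown by 16 members (34.8%), against 19.9% of those genes. They were Papss2, Slc26a2, Bpnt1, Slc35d1, Ugdh, Ugp2, Fam20b, Chsy1, Chpf, Chst11, Chst12, Dse, Ext1, Extl1, Extl2 and Hs6st2, so sulfate, UDP-sugar and chondroitin genes were joined by some of the heparan line. Some of these orders rest on near ties, as for Ext1 at 32.63 FPKM in Lgr5+ cells and 32.25 FPKM in Lgr5− cells. Under 5 other scalings of the libraries this order was shown by 23.9% to 30.4% of members, beside 14.7% to 19.5% of all genes. The share highest in Sox9+ cells ran from 41.3% to 50% under these scalings, beside 24.6% to 37.1% of all genes. The share lowest in Lgr5− cells ran from 39.1% to 52.2%, beside 25.4% to 33.1% of all genes. The Lgr5− library was also the one with 4011 FPKM of red blood cell markers, and scaling to library sums without the 100 most abundant genes of each library gave the lower end of that range. Across the 3 pairs, 22 of the 46 members stayed within 1.5-fold in every pair and 24 differed by at least 1.5-fold in at least 1 pair, against 35.4% of the 12754 genes.

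The comparison of Lgr5+ with Lgr5− cells set GFP-positive against GFP-negative digit cells of 1 day and line. The extracellular sulfatase genes Sulf1 and Sulf2 and the UDP-xylose synthase gene Uxs1 were more than 2-fold higher in Lgr5+ cells. The chondroitin sulfotransferase gene Chst15 was 2.03-fold lower. Among the 46 members measured, 3 passed 2-fold upward (6.52%), against 3.64% of 12438 genes measured, and 1 was at least 2-fold lower (2.17%), against 1.89% of genes. At 1.5-fold the counts were 7 higher (15.2%, against 9.47% of genes) and 3 lower (6.52%, against 5.96%). The members' median log2 ratio was 0.16, beside 0.08 over all genes measured.

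Lgr5+ cells of E14.5 were next set against Sox9+ cells of E13.5, that is, the labelled interzone against a digit population of the day before. Sulf1 and Uxs1 were at least 2-fold higher in Lgr5+ cells. The sulfate transporter gene Slc26a2, the linker enzyme gene Xylt1 and the chondroitin sulfate genes Csgalnact1 and Chst11 were at least 2-fold lower. Of 46 measured members, 2 were higher by that margin (4.35%), against 4.33% of 12492 genes, and 4 were lower (8.7%), against 3.96% of genes. At 1.5-fold, 5 were higher (10.9%, against 12.6% of genes) and 11 lower (23.9%, against 9.9%). The median log2 ratio was −0.13, beside 0.06 over all genes, and it turned to 0.02 beside 0.21 when each library was rescaled to an equal sum (TPM).

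The comparison of Lgr5− cells with Sox9+ cells gave the most members that were lower. Papss2, Slc26a2, Slc35d1, Ugdh, Xylt1 and Chst11 were at least 2-fold lower in Lgr5− cells and none was 2-fold higher. The 6 lower members were 13% of the 46 measured, against 4.94% of 12482 genes, and 3.08% of genes were at least 2-fold higher. At 1.5-fold, 3 members were higher (6.52%, against 9.5% of genes) and 13 lower (28.3%, against 12.8%). The median log2 ratio was −0.19, beside −0.01 over all genes. This comparison shares the Sox9+ library with the one before and the Lgr5− library with the first, so the 3 are not independent. Each of the 16 2-fold differences of members in the 3 comparisons, which belong to 11 genes, was also at least 2-fold with 2 smaller pseudocounts and under 5 other scalings.

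**Figure D2:**
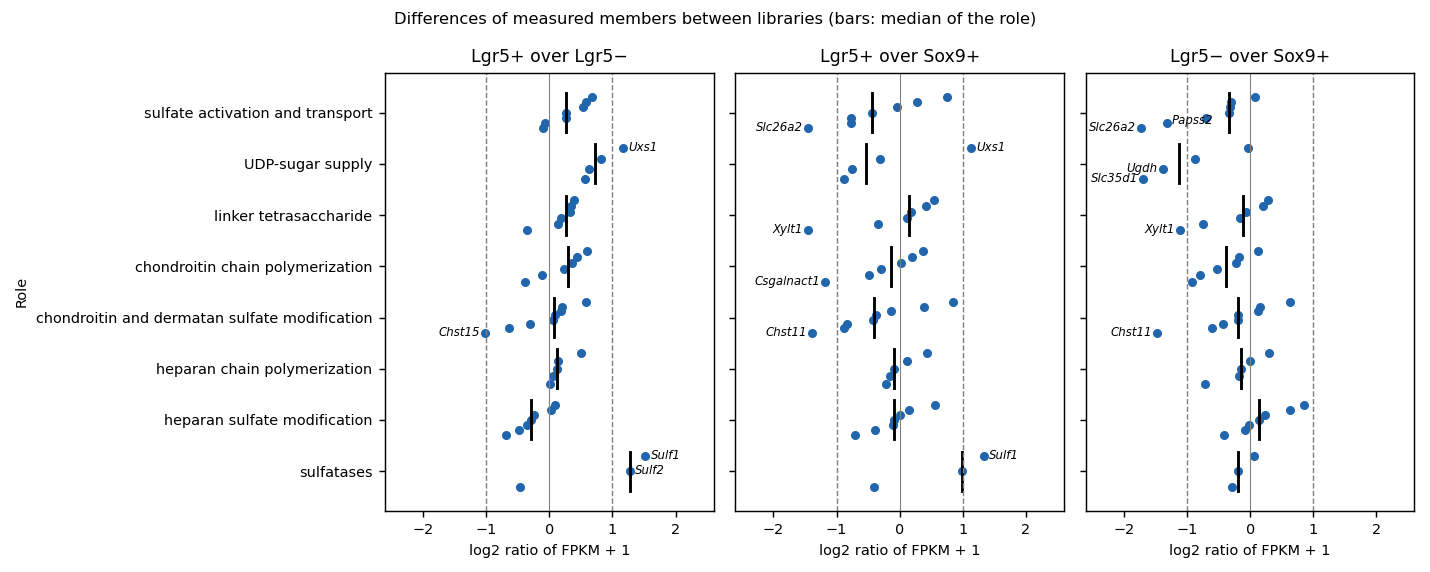
Log2 ratios of FPKM + 1 for the measured members by role, in 3 panels for Lgr5+ over Lgr5−, Lgr5+ over Sox9+ and Lgr5− over Sox9+. Points are genes, black bars are role medians and dashed lines mark 2-fold. UDP-sugar supply genes lie right of 0 in the first panel and left of it in the third, with Uxs1 right of the 2-fold line in the second. Points of heparan chain polymerization and of heparan sulfate modification stay within 2-fold in all 3, as do 91.7% to 94.5% of all measured genes in each pair.

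Sulfate must be taken up, activated to the donor PAPS and moved into the Golgi before any chain can be sulfated. Slc26a2, the main sulfate transporter of chondrocytes, had 7.58 FPKM in Lgr5+ cells, 6.11 FPKM in Lgr5− cells and 22.6 FPKM in Sox9+ cells. It was low in both Lgr5 libraries, 2.75-fold and 3.31-fold under the Sox9+ library, and the second was the largest fold among the members. Papss2, the PAPS synthase gene most linked to cartilage, had 59.3 FPKM in Lgr5+ cells, 40.4 FPKM in Lgr5− cells and 102.4 FPKM in Sox9+ cells. It was 1.71-fold and 2.5-fold lower than in Sox9+ cells. Its isoenzyme gene Papss1 differed less, at 68.6, 73.5 and 93.1 FPKM. Papss2 therefore made up 46.4% of the summed FPKM of the 2 synthases in Lgr5+ cells, 35.5% in Lgr5− cells and 52.4% in Sox9+ cells. A share within a library does not depend on how libraries are scaled.

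The Golgi PAPS transporter genes were instead highest in Lgr5+ cells. Slc35b2 had 59 FPKM in Lgr5+ cells, 39.1 FPKM in Lgr5− cells and 48.8 FPKM in Sox9+ cells. Slc35b3 had 11.9, 7.1 and 6.71 FPKM, and was 1.6-fold and 1.68-fold higher in Lgr5+ cells than in the other two. Used PAPS leaves PAP, which 2 phosphatases clear, and their genes differed in pattern. Impad1, which encodes the Golgi enzyme, had 18.7 FPKM in Lgr5+ cells, 19.7 FPKM in Lgr5− cells and 32.6 FPKM in Sox9+ cells, while Bpnt1, the gene of the cytosolic enzyme, had 10 FPKM, 8.22 FPKM and 10.4 FPKM. The 7 genes of this role summed to 235.1 FPKM in Lgr5+ cells, 194.1 FPKM in Lgr5− cells and 316.5 FPKM in Sox9+ cells.

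UDP-sugar supply was the role with the largest median difference between the Lgr5− and Sox9+ libraries, at −1.13 on the log2 scale. Its 4 genes summed to 190.3 FPKM in Lgr5+ cells, 112.7 FPKM in Lgr5− cells and 260.8 FPKM in Sox9+ cells. Ugdh, which makes the UDP-glucuronic acid used in both kinds of chain, had 93.7 FPKM in Lgr5+ cells, 60.4 FPKM in Lgr5− cells and 158.8 FPKM in Sox9+ cells. Slc35d1, which carries UDP-glucuronic acid and UDP-N-acetylgalactosamine for chondroitin sulfate, had 22.2, 12.2 and 41.8 FPKM in the same order. Both genes were thus lowest in Lgr5− cells and highest in Sox9+ cells, by 2.6-fold for Ugdh and 3.24-fold for Slc35d1 between those 2 libraries. The 18 cartilage markers had the same order of summed FPKM, and the part of the share of cartilage cells in these values, and in those of Slc26a2, Papss2 and Chst11, was not tested. In Lgr5+ cells Ugdh was 1.69-fold and Slc35d1 1.85-fold lower than in Sox9+ cells. Ugp2, the gene of the enzyme that makes UDP-glucose, had 34.2 FPKM in Lgr5+ cells, 22.7 FPKM in Lgr5− cells and 42.5 FPKM in Sox9+ cells.

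Uxs1, which turns UDP-glucuronic acid into the UDP-xylose that starts every linker, did not share that order. It had 40.2 FPKM in Lgr5+ cells, 17.4 FPKM in Lgr5− cells and 17.8 FPKM in Sox9+ cells, and was 2.24-fold and 2.2-fold higher in Lgr5+ cells. The ratio of Ugdh to Uxs1 within a library was 2.33 in Lgr5+ cells, 3.47 in Lgr5− cells and 8.94 in Sox9+ cells. Of the 50-base stretches of the longest Uxs1 coding transcript, 10.5% also occur in transcripts of other genes, so a part of its reads may have been assigned elsewhere.

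The linker is begun by the xylosyltransferases, and this step held the widest move between isoenzymes. Xylt1 had 3.26 FPKM in Lgr5+ cells, 4.44 FPKM in Lgr5− cells and 10.7 FPKM in Sox9+ cells, and was 2.75-fold and 2.15-fold lower than in Sox9+ cells. Xylt2 had 18.6, 14.6 and 12.5 FPKM in the same order. The share of Xylt1 in their sum was 14.9% in Lgr5+ cells, 23.4% in Lgr5− cells and 46.2% in Sox9+ cells, a spread of 31.3 percentage points and the largest of the 13 isoenzyme families compared. The later linker genes were even. B4galt7, which adds the first galactose, had 16.5 FPKM in Lgr5+ cells, 14.46 FPKM in Lgr5− cells and 15.2 FPKM in Sox9+ cells. B3galt6, which adds the second, had 7.41, 6.67 and 5.33 FPKM, and B3gat3, which adds glucuronic acid, had 31.5, 24.6 and 27.7 FPKM. Fam20b, the kinase that phosphorylates the xylose, had 14.7 FPKM in Lgr5+ cells, 10.9 FPKM in Lgr5− cells and 19 FPKM in Sox9+ cells, and was 1.68-fold lower in Lgr5− cells than in Sox9+ cells.

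**Figure D3:**
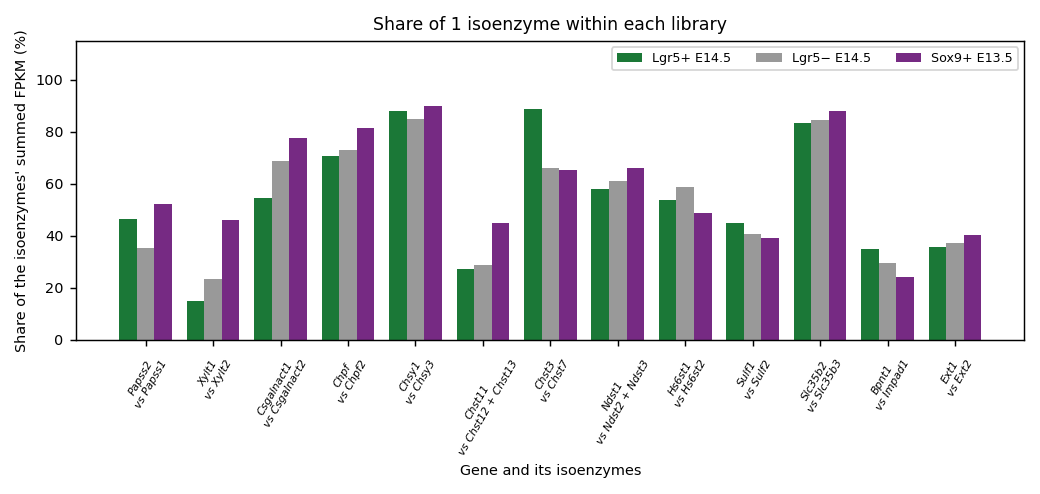
Share (%) of 1 isoenzyme in the summed FPKM of its family, 1 bar per library, for 13 families of members, with the other family genes named under each. The bars of Xylt1 differ most, at 14.9% in Lgr5+ cells, 23.4% in Lgr5− cells and 46.2% in Sox9+ cells, while those of Ext1, Slc35b2, Chsy1 and Sulf1 differ by at most 5.84 percentage points.

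Chondroitin chains begin when Csgalnact1 or Csgalnact2 adds the first N-acetylgalactosamine. Csgalnact1, the one needed for normal cartilage growth in mice, had 7.84 FPKM in Lgr5+ cells, 10.6 FPKM in Lgr5− cells and 19 FPKM in Sox9+ cells. It was 2.27-fold and 1.73-fold lower than in Sox9+ cells. Csgalnact2 had 6.48, 4.8 and 5.52 FPKM, so that Csgalnact1 took 54.7%, 68.8% and 77.5% of their sum in Lgr5+, Lgr5− and Sox9+ cells. Elongation is done by pairs of chondroitin synthase and polymerizing factor proteins. The polymerizing factor gene Chpf had 60.1 FPKM in Lgr5+ cells, 44.3 FPKM in Lgr5− cells and 84.8 FPKM in Sox9+ cells, and the synthase gene Chsy1 had 52.2, 44.1 and 64 FPKM. The smaller contributor Chsy3 stood at 7.28, 7.93 and 7.2 FPKM and hardly differed. Chpf2 had 25 FPKM in Lgr5+ cells, 16.3 FPKM in Lgr5− cells and 19.2 FPKM in Sox9+ cells. Its values are uncertain, since 45.9% of its exonic bases overlap exons of other genes, mostly Smarcd3 on the opposite strand, and this kind of library does not mark strand.

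Sulfation of chondroitin at the 4-O position is done by Chst11 and Chst12. Chst11, which is needed for the growth plate in mice, had 4.75 FPKM in Lgr5+ cells, 4.4 FPKM in Lgr5− cells and 14.1 FPKM in Sox9+ cells. It was 2.62-fold and 2.79-fold lower than in Sox9+ cells, and the Lgr5 libraries hardly differed. Chst12 had 12.6, 10.9 and 17.2 FPKM in the same order. The share of Chst11 in the sum with Chst12 and Chst13 was 27.4% in Lgr5+ cells, 28.7% in Lgr5− cells and 44.9% in Sox9+ cells. Ust, which adds a 2-O-sulfate to the uronic acid, was higher in both Lgr5 libraries. It had 10.9 FPKM in Lgr5+ cells, 9.29 FPKM in Lgr5− cells and 5.62 FPKM in Sox9+ cells, 1.79-fold and 1.55-fold above the Sox9+ library. The ratio of Chst11 to Ust was 0.438 in Lgr5+ cells, 0.474 in Lgr5− cells and 2.5 in Sox9+ cells.

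Chst15, which adds a further 6-O-sulfate to 4-O-sulfated units, was the 1 member at least 2-fold lower in Lgr5+ cells than in Lgr5− cells. It had 3.17 FPKM in Lgr5+ cells, 7.46 FPKM in Lgr5− cells and 6.72 FPKM in Sox9+ cells. Of its exonic bases, 17.9% overlap the antisense gene Gm10584, whose reads cannot be told apart from its own here. The chondroitin 6-O-sulfotransferase genes Chst3 and Chst7 were low. Chst3 had 5.26 FPKM in Lgr5+ cells, 3.18 FPKM in Lgr5− cells and 3.78 FPKM in Sox9+ cells, and Chst7 had 0.68, 1.62 and 1.99 FPKM. The dermatan sulfate genes differed little. Dse, the epimerase gene, had 21.1 FPKM in Lgr5+ cells, 20.3 FPKM in Lgr5− cells and 27.9 FPKM in Sox9+ cells, and Chst14, the dermatan 4-O-sulfotransferase gene, had 22.9, 28.4 and 25.4 FPKM.

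Heparan sulfate chains are polymerized by a complex of Ext1 and Ext2. These genes had 32.6 and 59 FPKM in Lgr5+ cells, 32.3 and 54.2 FPKM in Lgr5− cells and 36.6 and 54.2 FPKM in Sox9+ cells. Extl3, which starts the heparan chain, had 14.9, 13.54 and 10.8 FPKM. Extl2, which can cap the linker, had 6.86, 6.52 and 7.35 FPKM. None of the 5 polymerization genes was 2-fold different in any comparison, which is near the background, since 91.7% to 94.5% of all measured genes were within 2-fold in each pair. Extl1, whose product can elongate heparan chains, had 21.2 FPKM in Lgr5+ cells, 14.6 FPKM in Lgr5− cells and 24.7 FPKM in Sox9+ cells, and was the 1 gene of this role past 1.5-fold, in the Lgr5− against Sox9+ comparison.

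The 7 measured members that modify heparan inside the Golgi were all within 2-fold, near the background of 91.7% to 94.5% of all measured genes. Their median log2 ratio was −0.29 for Lgr5+ over Lgr5−, −0.1 for Lgr5+ over Sox9+ and 0.14 for Lgr5− over Sox9+. Over all measured genes the medians were 0.08, 0.06 and −0.01 in the same order. The N-sulfotransferase gene Ndst1 had 12 FPKM in Lgr5+ cells, 17.1 FPKM in Lgr5− cells and 10.7 FPKM in Sox9+ cells. Ndst2 had 8.52, 10.7 and 5.49 FPKM and was 1.8-fold higher in Lgr5− cells than in Sox9+ cells, and Ndst1 1.54-fold. The epimerase gene Glce had the narrowest range of all measured members, at 12.6, 11.7 and 12.5 FPKM, and the 2-O-sulfotransferase gene Hs2st1 had 12.4, 16.1 and 13.48 FPKM. The 6-O-sulfotransferase gene Hs6st1 had 17.6 FPKM in Lgr5+ cells, 21 FPKM in Lgr5− cells and 18.9 FPKM in Sox9+ cells, and Hs6st2 had 15.1, 14.8 and 20 FPKM. Hs3st1, a 3-O-sulfotransferase gene, had 3.02 FPKM in Lgr5+ cells, 5.46 FPKM in Lgr5− cells and 5.55 FPKM in Sox9+ cells, 1.61-fold and 1.63-fold lower in Lgr5+ cells.

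The members of the 2 lines were also summed, 15 chondroitin and dermatan sulfate enzyme genes and 13 heparan sulfate enzyme genes. The heparan genes summed to 216 FPKM in Lgr5+ cells, 218.1 FPKM in Lgr5− cells and 220.4 FPKM in Sox9+ cells. The chondroitin genes summed to 240.2 FPKM in Lgr5+ cells, 213.5 FPKM in Lgr5− cells and 302.5 FPKM in Sox9+ cells. The ratio of chondroitin to heparan genes was thus 1.11 in Lgr5+ cells, 0.979 in Lgr5− cells and 1.37 in Sox9+ cells. Both the near equal heparan sums and the order of these ratios hold for the members only. With 8 further heparan sulfate enzyme genes the heparan sum was 337.2 FPKM in Lgr5+ cells, 240.2 FPKM in Lgr5− cells and 244.6 FPKM in Sox9+ cells. A further 4 genes listed with the chondroitin sulfate and linker enzymes were Dsel, Pxylp1, Chst8 and Chst10. They are not all specific to chondroitin sulfate, and Chst8, for example, acts on glycoproteins. With both further lists the ratio was 0.848 in Lgr5+ cells, 1.02 in Lgr5− cells and 1.4 in Sox9+ cells, so that Lgr5+ cells had the lowest. Of the 121.2 FPKM of the 8 further heparan genes in Lgr5+ cells, Hs3st3a1 had 70.2 and Hs3st3b1 48.5. The low ratio in Lgr5+ cells therefore rests largely on these 2 genes, which share sequence, and not on the heparan line as a whole.

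**Figure D4:**
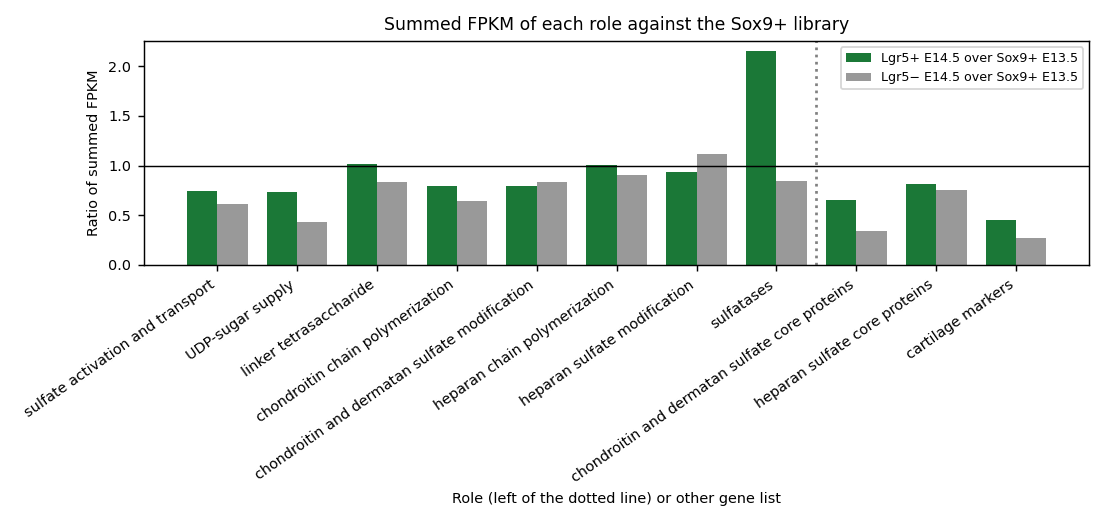
Summed FPKM of each role of the members in the Lgr5+ and Lgr5− libraries divided by that in Sox9+ cells, with 3 further gene lists right of the dotted line. The line at 1 marks equal sums. Sulfatases stand at 2.15 in Lgr5+ cells and UDP-sugar supply at 0.432 in Lgr5− cells.

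Once heparan sulfate is outside the cell, Sulf1 and Sulf2 remove 6-O-sulfates from it and so change which growth factors it holds. Sulf1 (GRCm38 chromosome 1, 12692277 to 12861192, plus strand) had 229 FPKM in Lgr5+ cells, 79 FPKM in Lgr5− cells and 90.2 FPKM in Sox9+ cells. Sulf2 (chromosome 2, 166073089 to 166155663, minus strand) had 280.05 FPKM in Lgr5+ cells, 114.6 FPKM in Lgr5− cells and 140.3 FPKM in Sox9+ cells. Both are protein-coding genes, and both were highest in Lgr5+ cells while the other libraries lay close together. Sulf1 was 2.87-fold higher in Lgr5+ cells than in Lgr5− cells and 2.52-fold higher than in Sox9+ cells. For Sulf2 the folds were 2.43 and 1.99, the second just under the 2-fold mark. The share of Sulf1 in their sum was 45% in Lgr5+ cells, 40.8% in Lgr5− cells and 39.1% in Sox9+ cells. Set against the 6-O-sulfotransferase genes Hs6st1 and Hs6st2, the summed FPKM of Sulf1 and Sulf2 was 15.6 times as high in Lgr5+ cells, 5.42 times in Lgr5− cells and 5.92 times in Sox9+ cells. The third sulfatase gene, Arsb, encodes a lysosomal enzyme that removes 4-O-sulfate from chondroitin and dermatan sulfate. It had 6.96 FPKM in Lgr5+ cells, 9.99 FPKM in Lgr5− cells and 9.59 FPKM in Sox9+ cells, and 39.9% of its exonic bases overlap other genes.

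Muscle markers were also highest in Lgr5+ cells, with 9 of 11 measured markers at least 2-fold higher in the comparison with either other library and none of the 12 at 0. Over all genes, 3.64% were that much higher than in Lgr5− cells and 4.33% than in Sox9+ cells. Interzone markers were at least 2-fold higher there too, 8 of 11 against the Lgr5− library and 7 of 11 against the Sox9+ library. So were macrophage markers, 3 of 9 measured against the Lgr5− library and 8 of 9 against the Sox9+ library. Epidermal markers were at least 2-fold higher for 5 of 9 measured against the Lgr5− library. Against the Sox9+ library 3 of 9 epidermal markers were higher and 2 lower. Of 18 cartilage markers, 6 were at least 2-fold higher and 2 lower against the Lgr5− library. Against the Sox9+ library 11 cartilage markers were lower. The part of any of these cells in the values of Sulf1, Sulf2 and Uxs1 was not tested.

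Genes of the same pathway outside the 48 members were read from 7 lists. Of all genes measured, 94.5% were within 2-fold in Lgr5+ over Lgr5−, 91.7% in Lgr5+ over Sox9+ and 92% in Lgr5− over Sox9+, so a list with few genes past 2-fold is near this background. Among 8 further heparan sulfate enzyme genes, the 3-O-sulfotransferase genes Hs3st3a1 and Hs3st3b1 exceeded every member in fold in both comparisons of Lgr5+ cells. Hs3st3a1 had 70.2 FPKM in Lgr5+ cells, 6.46 FPKM in Lgr5− cells and 9.01 FPKM in Sox9+ cells, 9.54-fold and 7.11-fold higher in Lgr5+ cells. Hs3st3b1 had 48.5, 8.3 and 12.6 FPKM, 5.32-fold and 3.63-fold higher. The pair share sequence, with 10.7% of the 50-base stretches of the Hs3st3a1 transcript found in other transcripts, and 32.9% of the exonic bases of Hs3st3a1 overlap a gene on the opposite strand. How reads were split is therefore uncertain, but both were high in the same library. Their sum was 39.3 times Hs3st1 in Lgr5+ cells, 2.7 times in Lgr5− cells and 3.9 times in Sox9+ cells. Of the 5 genes of this list measured in Lgr5+ over Lgr5−, 2 were thus at least 2-fold higher, and 1, Hs3st6, was lower, at 0.43 against 2.8 FPKM. At 1.5-fold, 2 were higher and 3 lower, against 9.47% and 5.96% of all genes. The lower genes added were Hs3st2 and the 6-O-sulfotransferase gene Hs6st3, the latter at 0.77 FPKM in Lgr5+ cells and 1.82 FPKM in Lgr5− cells. Hs3st2, a 3-O-sulfotransferase gene, was low throughout, at 0.38 FPKM in Lgr5+ cells, 1.07 FPKM in Lgr5− cells and 0 in Sox9+ cells.

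**Figure D5:**
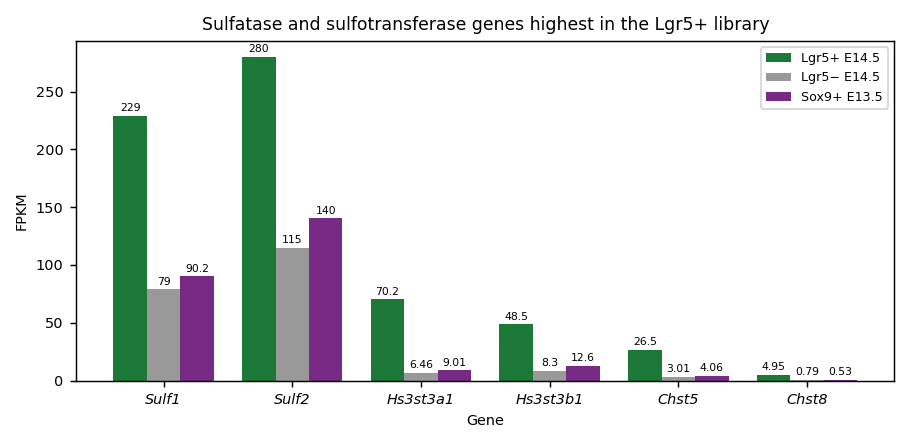
FPKM of 2 sulfatase genes and 4 further sulfotransferase genes, with 1 bar and its value for each of the Lgr5+, Lgr5− and Sox9+ libraries. The 6 genes were chosen because they are highest in Lgr5+ cells, so that order is not a result. Sulfotransferase genes lowest in Lgr5+ cells, such as Hs3st1, Chst15 and Hs3st6, are not shown. Sulf1 and Sulf2 differ by smaller folds than Hs3st3a1, Hs3st3b1, Chst5 and Chst8.

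Other sulfotransferase genes were also highest in Lgr5+ cells, at lower levels. Chst5, which acts on N-acetylglucosamine as in keratan sulfate, had 26.5 FPKM in Lgr5+ cells, 3.01 FPKM in Lgr5− cells and 4.06 FPKM in Sox9+ cells, 6.87-fold and 5.44-fold higher in Lgr5+ cells. Chst8, which sulfates N-acetylgalactosamine on glycoproteins, had 4.95 FPKM in Lgr5+ cells, 0.79 FPKM in Lgr5− cells and 0.53 FPKM in Sox9+ cells. Among 8 measured keratan sulfate genes, Chst5 was the 1 at least 2-fold higher in Lgr5+ cells in either comparison, and Chst1 the 1 lower, at 1.62 against 4.82 FPKM in Sox9+ cells. The list of lysosomal breakdown held 15 genes, not all of which encode lysosomal enzymes, as with Sumf1 and Sumf2. In the Lgr5+ against Lgr5− and in the Lgr5− against Sox9+ comparison 15 of 15 were within 2-fold, near the background of 94.5% and 92%. By small folds, 13 of the 15 were higher in Lgr5+ over Lgr5− and 14 of the 15 in Lgr5+ over Sox9+, against 59.4% and 55.6% of all genes. The hyaluronidase gene Hyal2 was the 1 at least 2-fold higher in Lgr5+ over Sox9+, at 64.2 against 29 FPKM. Of the further sulfate transport and protein sulfation genes, none of 4 measured was 2-fold different in either comparison of the Lgr5+ library, nor any of 3 in the Lgr5− against Sox9+ comparison.

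Several genes of the core proteins that carry the chains stood far apart between libraries. Acan, the aggrecan gene, had 28.6 FPKM in Lgr5+ cells, 18.3 FPKM in Lgr5− cells and 101.3 FPKM in Sox9+ cells, an order it shared with Ugdh, Slc35d1 and Papss2. It was 3.46-fold and 5.3-fold lower than in Sox9+ cells. Of 13 chondroitin and dermatan sulfate core genes, 4 are also among the cartilage markers. In Lgr5+ over Lgr5−, 4 of the 13 were at least 2-fold higher and 1 lower, against 3.64% and 1.89% of all genes. At 1.5-fold, 9 were higher and 1 lower in that pair, against 9.47% and 5.96% of all genes. In Lgr5+ over Sox9+, 4 of the 13 were at least 2-fold higher and 3 lower, against 4.33% and 3.96% of all genes. In Lgr5− over Sox9+, 2 of 12 were higher and 6 lower, against 3.08% and 4.94% of all genes. The dermatan sulfate proteoglycan gene Dcn went the other way from Acan, at 115.3 FPKM in Lgr5+ cells, 36 FPKM in Lgr5− cells and 7.97 FPKM in Sox9+ cells. Epyc, a cartilage proteoglycan gene, had 1.2, 0.63 and 48.8 FPKM in the same order. Of its exonic bases, 40.65% overlap Gm10754 on the opposite strand, whose reads cannot be told apart from its own here.

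The collagen IX genes, whose product can carry a chondroitin sulfate chain, were high in all libraries and highest in Sox9+ cells. Col9a1 had 302.4 FPKM in Lgr5+ cells, 184.1 FPKM in Lgr5− cells and 608.2 FPKM in Sox9+ cells, and Col9a2 and Col9a3 followed the same order. Cspg4, which encodes the membrane proteoglycan NG2, had 52 FPKM in Lgr5+ cells, 26 FPKM in Lgr5− cells and 63.7 FPKM in Sox9+ cells. The lectican genes Bcan and Ncan were low and highest in Lgr5+ cells, at 4.13, 0.49 and 1.37 FPKM for Bcan and 1.51, 0.49 and 0.23 FPKM for Ncan. Srgn, the core protein gene of blood cell granules, was highest in Lgr5− cells, at 2.88 FPKM in Lgr5+ cells, 8.58 FPKM in Lgr5− cells and 0.45 FPKM in Sox9+ cells. The part of blood cells in its values was not tested.

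Among the heparan sulfate core genes, none of 13 measured was 2-fold different between the Lgr5+ and Lgr5− libraries, a count near the background of 3.64% higher and 1.89% lower over all genes. The perlecan gene Hspg2 was the 1 at least 2-fold lower in Lgr5+ over Sox9+, at 2.28 against 7.84 FPKM, and the syndecan gene Sdc2 the 1 higher in Lgr5− over Sox9+, at 67.3 against 32.8 FPKM. The core list summed to 1108 FPKM in Lgr5+ cells, 1026 FPKM in Lgr5− cells and 1360 FPKM in Sox9+ cells, of which the glypican gene Gpc3 made up 626.6, 534.5 and 888.8 FPKM.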

How the data were processed

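Cells were freed from digits with TrypLE and DNase and sorted by GFP, and SMARTer libraries were prepared from low-input RNA, per the labels' protocols. Per the submitters' processing notes, HISAT2 and the build mm10 (GRCm38) were used. What computed the expression values, and on which annotation, is not given in the sources used here. Each library's deposited table holds FPKM per gene symbol with 2 decimals and no counts, so depth is unknown and no counting interval is given. FPKM are shares of a library.

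Log2 ratios of FPKM + 1 were computed over all genes in 3 pairs of libraries with Python 3.11.15 and pandas 2.3.3, and the steps were tested on simulated data. Members with a 1.5-fold difference, the highest of each role and their isoenzymes were named, and genes outside the members at 2-fold. Members and lists were chosen with earlier results of these data known. Gene positions, exon overlaps and shared 50-base stretches came from GENCODE M21, promoters from RefSeq. Pxylp1 and Snorc were matched through older symbols. Motifs and printed promoters were chosen after the values were seen. Scalings tried were TPM, library sums without the 100 most abundant genes of each library, upper quartile, median of ratios and quantile normalization.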

Additional observations from a re-analysis of the deposited data

How the results depend on the processing

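All 16 2-fold differences of members were also made with pseudocounts of 0.1 and 0.5 and under 5 other scalings, and no direction of a named 2-fold difference reversed. Counts moved at the threshold. With 1.5-fold in place of 2-fold, 7 members were higher and 3 lower in Lgr5+ over Lgr5−, 5 higher and 11 lower in Lgr5+ over Sox9+, and 3 higher and 13 lower in Lgr5− over Sox9+. After rescaling to TPM, 4 members were higher in Lgr5+ over Sox9+, Sulf2 and Ust being added, and 1, Ndst2, in Lgr5− over Sox9+. With a pseudocount of 0.1, 2 members were lower in Lgr5+ over Lgr5−, Chst7 being added, and 6 in Lgr5+ over Sox9+, Chst7 and Chst15 being added; with 0.5, Chst7 alone made it 5. By quantile normalization Sulf2 made 3 members higher in Lgr5+ over Sox9+. Adding 1 FPKM to each isoenzyme moved the share of Chst3 in the Lgr5+ library to 78.8% and that of Ndst1 in the Sox9+ library to 61.0%. With the further pathway enzymes, a choice made after seeing the data, the ratio of chondroitin to heparan genes in Lgr5+ cells was 0.848. Median log2 ratios of the members ran from 0.01 to 0.2 for Lgr5+ over Lgr5−, −0.22 to 0.02 for Lgr5+ over Sox9+ and −0.22 to −0.09 for Lgr5− over Sox9+. TPM rescaling shifted the median of all genes to 0.11, 0.21 and 0.11 in these pairs, and the members' median relative to all genes stayed at 0.08 to 0.09, −0.2 to −0.19 and −0.21 to −0.18 over the 6 scalings. Of all genes 2-fold different, 65.8% were higher in Lgr5+ over Lgr5− (52.5% by upper quartile, 56.5% without the most abundant genes), 52.2% in Lgr5+ over Sox9+ (64.8% by TPM) and 38.4% in Lgr5− over Sox9+ (52.3% by TPM, 48.6% without the most abundant genes). Of 34 2-fold differences among the further pathway genes, 30 held under all 7 settings; Ncan, Col9a1, Col9a2 and Col9a3 fell under 2-fold in some. No paired analysis was possible because each population has 1 library, and no replicate could be left out. Shares and log2 ratios were counted as moved past 5 percentage points or 0.2. Depth and replicate spread are unknown, so small folds and genes near 1 FPKM cannot be judged.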
